A study of Oryza sativa Indica Group with 18 samples.

Results

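Annapurna and IR64, both indica rice cultivars, were compared after the hottest step of a heat treatment. The comparison rests on 6 of the 18 Affymetrix rice arrays of the study, 3 labelled as biological replicates of Annapurna at 42 °C and 3 of IR64 at 42 °C, chosen by their labels and not by any measured value. All arrays held RNA from whole seedlings, 7 days old and grown hydroponically. The 42 °C groups were held first for 1 h at 37 °C, then for 2 h at 42 °C, at about 40% relative humidity. Control groups of both cultivars, 3 arrays each, were kept in the growth medium for 3 h at about 28 °C. A further 3 arrays of each cultivar were taken after 1 h at 37 °C and are used here to show whether a difference was present at the first step. The labels name no transgene or mutation, so the groups differ by cultivar as a whole.

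Plants meet heat with heat stress transcription factors, which switch on chaperone genes, among them the small heat shock proteins that hold unfolding proteins in a soluble state. The hormone abscisic acid acts alongside this response and induces late embryogenesis abundant (LEA) proteins and dehydrins, hydrophilic proteins known from drying seeds and from leaves short of water. Jasmonate is known for defence against insects and fungi, and its signalling is held in check by JAZ repressor proteins. Young rice seedlings still draw on the grain, where alpha-amylases break down starch and the glyoxylate cycle turns stored lipid into sugar.

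Values are the deposited intensities of each probe set, and differences are Annapurna minus IR64 on the scale of log2(intensity + 16), given ± the standard error (SE) of a limma fit over all 18 arrays. A probe set was called where the Benjamini-Hochberg adjusted p was under 0.05 and the difference reached 2-fold, 1 on the log2 scale. Between 34.9 and 35.3% of probe sets exceeded an intensity of 50 on the 6 arrays at 42 °C. Over probe sets, a description only since they are not independent, the correlation of arrays was 0.9986 to 0.9991 within a cultivar at 42 °C and 0.9795 to 0.9808 between cultivars. The log2 ratio of the 3' to the 5' actin control probe set, a sign of RNA integrity, was 5.15 to 5.40 on the Annapurna and 5.03 to 5.22 on the IR64 arrays at 42 °C. In controls this ratio did not overlap between the cultivars, at 5.09 to 6.31 in Annapurna and 4.62 to 5.03 in IR64, and the part of RNA integrity in the control differences was not tested. A second pair of actin probe sets gave 3.08 to 3.94 and 2.44 to 3.00 in controls, and 2.64 to 2.80 and 2.44 to 2.78 at 42 °C. Among controls, Annapurna replicate 1 had the highest ratio of both pairs. IR64 control replicate 3 stood apart in the 5' CreX spike-in, at 42506.5 against 26487 and 27322 on its replicates, and in AMY1.1, as described with the grain genes. For 1 gene the smallest p that exact permutation allows with 3 arrays a side is 0.1, so the limma values alone are given. They measure the spread between the samples labelled as biological replicates.

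At 42 °C the cultivars differed in 1929 of 57258 probe sets (3.37%), Annapurna being above IR64 in 823 (1.44%) and below in 1106 (1.93%). Controls differed in 2036 probe sets (3.56%), 1195 higher (2.09%) and 841 lower (1.47%) in Annapurna. The control comparison and that at 42 °C share no arrays. They had 959 probe sets called in the same direction, 49.7% of the calls at 42 °C and 47.1% of those between controls. These 959 (1.67% of all) are the differences already present between controls, 472 higher and 487 lower. A difference was counted as seen only at 42 °C where it was called there, was not called between controls, and differed from the control difference by at least 2-fold with an adjusted p under 0.05 in the same direction. The change from the control difference was called in 1730 probe sets (3.02%) in all. All conditions held for 527 probe sets (0.92%), 169 higher and 358 lower in Annapurna. A further 428 (0.747%), 180 higher and 248 lower, were called at 42 °C and not between controls while the change of the difference was not called, and are left undecided. The remaining 15 probe sets (0.0262%) turned, 13 from higher between controls to lower at 42 °C and 2 the other way. Differences already present between controls could also change in size. Of the 472 higher ones 40 grew and 33 shrank by a called change, and of the 487 lower ones 49 grew and 33 shrank.

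**Figure D1:**
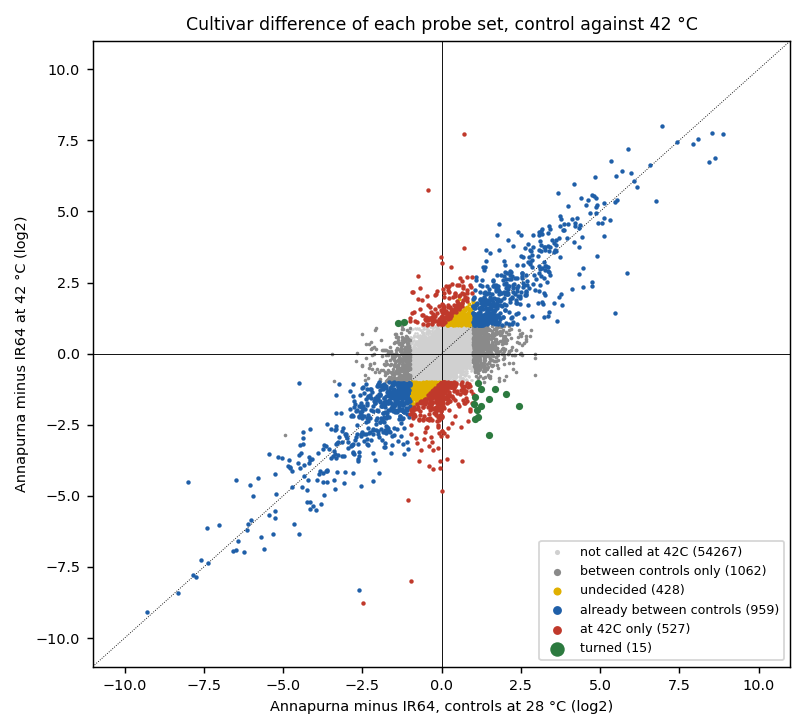
Annapurna minus IR64 of each of 57258 probe sets between controls at 28 °C (x axis) and at 42 °C (y axis), both on the log2(intensity + 16) scale, coloured by class with the number of probe sets in each. The 959 points of the class already between controls lie about the dotted line of equal difference, some of them far from it. The 527 points of the class at 42 °C only lie above and below the centre.

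The arrays at 37 °C entered neither class rule, and there the cultivars differed in 1800 probe sets (3.14%), 1030 higher (1.8%) and 770 lower (1.34%) in Annapurna. Of the differences already present between controls, 82.4% of the higher and 79.9% of the lower ones were called in the same direction at 37 °C. Of those seen only at 42 °C, the shares were 21.3 and 15.9%. Differences already present between controls had a median of 1.99 where Annapurna was higher and -1.97 where it was lower, against 1.54 and -1.54 for those seen only at 42 °C, all on the log2 scale. Differences of at least 3 log2 made up 25.6 and 26.5% of the first class and 3.55 and 5.03% of the second.

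Most probe sets that were lower in Annapurna at 42 °C only were ones that heat raised in IR64. Of the 358, 266 rose in IR64 from control to 42 °C without falling in Annapurna, 29 fell in Annapurna without rising in IR64, 3 did both and 60 neither, by the same call rule. Of the 169 that were higher in Annapurna, 85 fell in IR64 only, 63 rose in Annapurna only, 1 did both and 20 neither. The background for these counts is 3561 probe sets called between control and 42 °C in IR64 (6.22%), 2088 up (3.65%) and 1473 down (2.57%), and 2640 in Annapurna (4.61%), 1137 up (1.99%) and 1503 down (2.62%). These comparisons share arrays with the cultivar comparison, so the counts describe it and do not test it. Under quantile normalization the differences seen only at 42 °C numbered 202 higher and 276 lower, so the share of higher ones was 42.3% in place of 32.1%.

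By gene, with 1 representative probe set for each of 17905 genes, 995 (5.56%) were called at 42 °C, 446 (2.49%) higher and 549 (3.07%) lower in Annapurna. Of these genes, 235 higher and 227 lower were already so between controls (2.58% of all genes), 107 and 187 differed at 42 °C only (1.64%), 103 and 127 were undecided (1.28%), and 1 and 8 turned (0.0503%). Between controls 1096 genes (6.12%) were called, 696 higher (3.89%) and 400 lower (2.23%). The change of the difference was called in 987 genes (5.51%), above 0 in 333 (1.86%) and below 0 in 654 (3.65%). The gene groups described next are read against these shares, as counts with no test of the group. Each group holds only genes matched by a name or synonym in the annotation, so a family may have further members on the array. Of the 2450 genes with a name, 71 were called higher and 91 lower in Annapurna at 42 °C.

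LEA and dehydrin genes were lower in Annapurna at 42 °C. The list also takes in OsPM19L1, a gene of a hydrophobic membrane protein and so not of the hydrophilic kind described above. Of 9 measured members 8, OsPM19L1 among them, were called lower and 0 higher, with a median difference of -1.95 against -0.01 over all genes. Between controls 3 members were called higher in Annapurna and 1 lower, with a median of 0.23. At 37 °C 5 were called higher and 0 lower, where 966 of all genes were called (5.4%), 586 higher (3.27%) and 380 lower (2.12%), with a median of 1.35. The 8 called members all rose from control to 42 °C in IR64, where 2064 of all genes were called (11.5%), 1155 up (6.45%) and 909 down (5.08%). Of all 9 members 2 rose in Annapurna and 2, rab25 and Dhn1, fell, where 1587 were called (8.86%), 605 up (3.38%) and 982 down (5.48%).

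RAB16C, a dehydrin gene that abscisic acid induces, read 207, 214 and 215 on the Annapurna and 2034, 2379 and 2434 on the IR64 arrays at 42 °C. All IR64 arrays lay above all Annapurna arrays, and the difference was -3.33 ± 0.17, adjusted p = 1.6e-09. Controls read 85.7, 87.2 and 77.7 in Annapurna and 72.3, 70.3 and 143 in IR64, and overlapped (-0.10 ± 0.17). One hour at 37 °C had the opposite order, with 728, 738 and 728 in Annapurna above 288, 277 and 269 in IR64 (1.35 ± 0.17). OsPM19L1 encodes a hydrophobic membrane protein of the abscisic acid response. It read 756, 749 and 689.5 in Annapurna against 3909, 4053 and 4023 in IR64 at 42 °C (-2.43 ± 0.13, adjusted p = 2.8e-09), and at 37 °C 3670.3 to 4021 in Annapurna and 2154 to 2219 in IR64, a difference of 0.81 ± 0.13 that was not called. Its controls read 372 to 607 in Annapurna and 323 to 399 in IR64, with arrays that overlapped.

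In 3 dehydrin genes the order of the cultivars turned between control and 42 °C. RAB16B read 814, 884 and 974 in Annapurna controls and 187, 190.3 and 236 in IR64 controls, a difference of 2.05 ± 0.08. At 37 °C it stood at 11669 to 12338 in Annapurna and 990.2 to 1028 in IR64 (3.56 ± 0.08). By 42 °C the Annapurna arrays read 759, 806 and 828 and the IR64 arrays 1962, 2189.9 and 2306 (-1.41 ± 0.08, adjusted p = 8.9e-09). Annapurna was thus the higher cultivar at the first step and the lower at the second, with no overlap of arrays at either. RAB21, a dehydrin gene also known as RAB16A, went from 1.69 ± 0.15 between controls to -1.23 ± 0.15 at 42 °C, where Annapurna read 7128, 6845 and 6143 and IR64 16297, 19962 and 12037. A second probe set of RAB21 gave -3.78 ± 0.09 at 42 °C and 0.65, not called, in controls, so the size depends on the probe set. For rab25, another dehydrin gene, the difference went from 1.07 ± 0.12 to -2.29 ± 0.12. Its intensity dropped in Annapurna from 59.0, 53.0 and 42.1 in controls to 14.7, 15.1 and 11.4 at 42 °C and rose in IR64 from 10.3, 20.4 and 18.12 to 127, 130.2 and 131.

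RAB16D was the member already lower in Annapurna controls, at 186, 226 and 387 in Annapurna against 701, 656 and 673 in IR64 (-1.36 ± 0.17). At 42 °C it read 2385, 2516 and 2278 in Annapurna against 11578, 11435 and 12152 in IR64 (-2.29 ± 0.17, adjusted p = 9.7e-08), and the change of the difference, -0.93 ± 0.23, was short of the 2-fold needed for a call. EM, a LEA gene of the maturing embryo, read 28.0, 31.3 and 32.5 in Annapurna and 158, 168 and 165 in IR64 at 42 °C (-1.95 ± 0.27, adjusted p = 7.1e-05). LEA19, a LEA gene also named OsLEA3-1, read 3141, 2629.6 and 2208 in Annapurna and 6388, 9497 and 6688 in IR64 (-1.49 ± 0.19, adjusted p = 2.9e-05). Both were named after their values were seen. Dhn1, an acidic dehydrin, was the uncalled member, at -0.24 ± 0.05 at 42 °C, with 1559 to 1689 in Annapurna and 1905 to 1969.7 in IR64. Of other genes tied to abscisic acid, CYP707A6, a hydroxylase that breaks the hormone down, read 142, 166 and 182 in Annapurna and 509.9, 501 and 492 in IR64 (-1.53 ± 0.10, adjusted p = 2.9e-08), with 262 to 373 and 300.3 to 307 in controls.

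**Figure D2:**
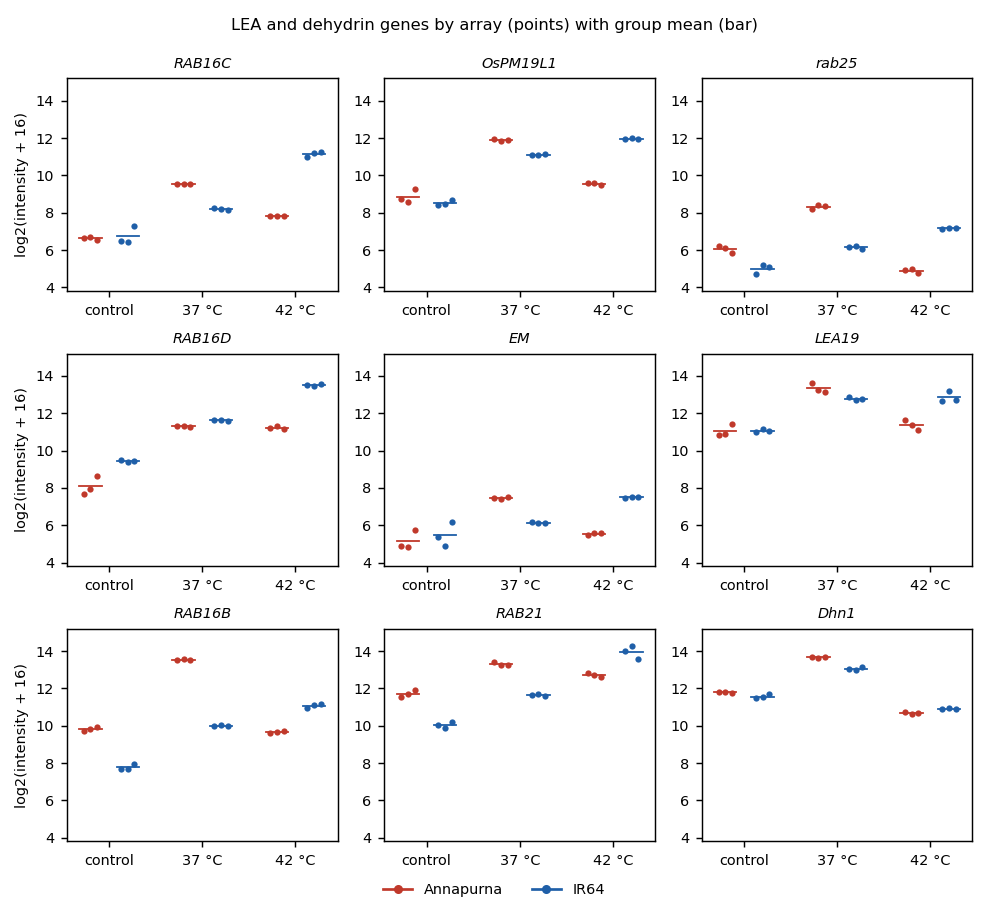
Log2(intensity + 16) of the 9 genes of the LEA and dehydrin list, OsPM19L1 included, on each array (points) with the mean of each group (bars). Annapurna is in red and IR64 in blue, in controls, at 37 °C and at 42 °C. In all 9 genes the IR64 points lie above the Annapurna points at 42 °C, by less than 2-fold in Dhn1, and in RAB16B, RAB21 and rab25 this order is the reverse of that in controls and at 37 °C.

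Some protein phosphatases 2C block abscisic acid signalling. Their list takes in the family as named, with receptors of the hormone and the kinase gene OsSAPK9. Of its 66 measured genes 3 were higher and 1 lower at 42 °C. The lower one, OsPP2C59, read 42.4, 34.2 and 37.8 in Annapurna and 132, 133 and 125 in IR64 (-1.43 ± 0.08, adjusted p = 9.2e-09), after 33.8 to 47.3 and 10.03 to 13.3 in controls. Its control difference of 0.99 ± 0.08 lay just under the threshold in the opposite direction. OsPP2C12 was the most different of the higher ones, at 1993, 1756 and 1301 in Annapurna against 88.4, 76.8 and 67.1 in IR64 (4.17 ± 0.16, adjusted p = 7.1e-11). It was already higher in controls (3.06 ± 0.16), and the difference grew by 1.11 ± 0.22. OsPP2C02 (1.15 ± 0.06) and the kinase gene OsSAPK9 (1.01 ± 0.09) were called at differences close to the threshold.

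Heat raised most small heat shock protein genes in both cultivars, and at 42 °C Annapurna was lower in 5 of 19 and higher in 1. From control to 42 °C, 13 members rose in Annapurna and 15 in IR64, and 0 fell in either. Between controls 3 were called higher in Annapurna and 1 lower, with a median difference of 0.24 that stood at -0.53 at 42 °C. At 42 °C the difference was below 0 in 14 of the 19 members and above 0 in 5.

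HSP18.1 showed the largest difference of the group. At 42 °C it read 30.1, 24.3 and 13.3 in Annapurna and 11722, 11956 and 12562 in IR64 (-8.32 ± 0.13, adjusted p = 3.1e-15). Controls already differed, at 8.43, 5.66 and 5.18 in Annapurna and 119, 105 and 138 in IR64 (-2.60 ± 0.13), and 37 °C gave 125, 142 and 118 in Annapurna against 35444, 32748 and 32478 in IR64 (-7.87 ± 0.13). No Annapurna array reached the level of a heated IR64 array. A second probe set of the gene gave -8.00 ± 0.37 at 42 °C and -0.96 between controls, under the threshold, so that the control difference rests on 1 probe set. A probe set reads 1 stretch of a transcript. From a difference at 42 °C alone, a lower level and a sequence that differs between cultivars at that stretch cannot be told apart. The part of sequence in the differences of this comparison was not tested. HSP26.7, known as a chloroplast chaperone, differed by 0.02 ± 0.05 in controls and by -0.09 ± 0.05 at 37 °C, neither of them called. At 42 °C it read 1377, 1455 and 1525 in Annapurna and 9191, 9164 and 10603 in IR64 (-2.72 ± 0.05, adjusted p = 1.3e-14), so the cultivars parted at the second step. HSP16.9B, a cytosolic member, did the same, with 360.2, 305 and 302 in Annapurna against 2209.7, 2059 and 1823 in IR64 at 42 °C (-2.60 ± 0.08, adjusted p = 4.1e-12) and 0.55 ± 0.08 at 37 °C. Small heat shock protein genes are close in sequence, and the signal of one probe set may include RNA of another member.

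Both remaining lower members were dimmer. HSP16.6 read 18.03, 18.8 and 18.8 in Annapurna and 122, 135 and 109 in IR64 at 42 °C (-1.995 ± 0.10, adjusted p = 1.8e-09), and HSP21.9, named after its values were seen, 34.2, 39.9 and 37.5 in Annapurna and 147, 143 and 145 in IR64 (-1.59 ± 0.10, adjusted p = 2.8e-08). HSP17.4 was the member higher in Annapurna, at 6484, 6291 and 5719 in Annapurna against 2289, 2693 and 2312 in IR64 (1.34 ± 0.07, adjusted p = 1.4e-09), and was so in controls too (1.65 ± 0.07). HSP23.2 and HSP18.6 were called higher in Annapurna between controls (1.44 ± 0.07 and 1.20 ± 0.13) and were not called at 42 °C (-0.53 ± 0.07 and -0.53 ± 0.13). HSP24.1, the uncalled member with the highest mean, read 10318 to 11345 in Annapurna and 11666 to 12342 in IR64 (-0.16 ± 0.09).

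**Figure D3:**
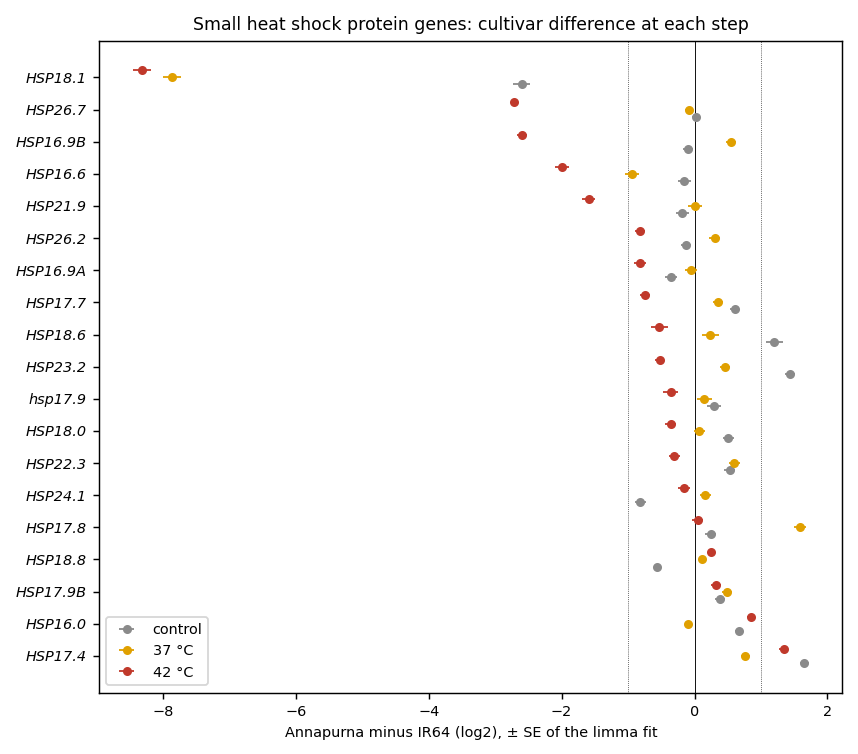
Annapurna minus IR64 (log2, x axis) of the 19 small heat shock protein genes between controls (grey), at 37 °C (yellow) and at 42 °C (red), with bars of 1 SE of the limma fit and dotted lines at the 2-fold threshold. HSP18.1 lies far to the left in both heat steps, and HSP26.7, HSP16.9B, HSP16.6 and HSP21.9 cross the threshold at 42 °C only.

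Heat stress transcription factors held 21 measured genes, of which 2 were lower in Annapurna at 42 °C and 0 higher. At 37 °C 5 were called higher in Annapurna and 0 lower, where 3.27% of all genes were called higher and 2.12% lower. Both genes lower at 42 °C, HSFB2A (1.20 ± 0.10) and HSFA6B (1.07 ± 0.14), were among those higher at 37 °C. HSFB2A read 171, 160.4 and 153 in Annapurna and 302, 355 and 373 in IR64 (-1.01 ± 0.10, adjusted p = 2.4e-06), after 1153 to 1390.4 and 718 to 944 in controls. This call lay at the threshold and was lost under quantile normalization (-0.97), with 64 added before the log, and without Annapurna replicate 3 (-0.98), IR64 replicate 2 (-0.99) or IR64 replicate 3 (-0.95) at 42 °C. A second probe set of HSFB2A gave -0.93, not called. HSFA6B read 32.9, 38.6 and 25.3 in Annapurna and 80.4, 89.3 and 112 in IR64 (-1.19 ± 0.14, adjusted p = 2.2e-05). HSFA2A, a main activator of chaperone genes under heat, was dim in both cultivars at 42 °C, with 18.8, 23.0 and 15.6 in Annapurna and 34.3, 34.2 and 30.9 in IR64, and was not called (-0.49 ± 0.09, adjusted p = 6.4e-04). At 37 °C HSFA2A was bright in both, at 6854 to 7389 in Annapurna and 5528 to 6307 in IR64 (0.26 ± 0.09, not called). Its difference between controls had the other sign from that at 42 °C (0.51 ± 0.09), and the change of -1.003 ± 0.12 was called at the threshold. Its other probe sets gave -0.08 and -0.26 at 42 °C and -0.00074 and -0.03 in controls, and so do not show this change.

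Of 8 HSP100 and Clp genes, 3 HSP90 genes and 5 DnaJ genes 0 were called at 42 °C, where 5.56% of all genes were called. In lists this short, 0 calls does not set these chaperones apart from all genes. No list of HSP70 genes was made. CLPB1, the HSP101 disaggregase that plants need to survive strong heat, read 306, 308 and 324 in Annapurna and 401, 362 and 354 in IR64 (-0.24 ± 0.08, adjusted p = 0.06). In controls it was 181, 197 and 249.8 in Annapurna against 106, 115 and 114 in IR64 (0.81 ± 0.08), a control difference in the other direction, so that the change of -1.05 ± 0.12 was called. HSP81-3, the HSP90 gene with the highest mean, stood at -0.12 ± 0.05. Of 21 genes for protein folding in the endoplasmic reticulum 1 was called, the disulphide isomerase gene OsPDIL1-3, with 9.09, 7.91 and 9.08 in Annapurna and 66.5, 46.9 and 43.7 in IR64 (-1.45 ± 0.10, adjusted p = 3.5e-08).

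Several genes known from the grain and the germinating seed were lower in Annapurna at 42 °C. Of 22 measured grain and endosperm markers 5 were lower in Annapurna and 0 higher, while the median difference over the list was -0.0050, with 11 members above and 11 below 0. The summed intensity of the 22 markers ran from 12045 to 12772 on the Annapurna arrays and from 23936 to 25692 on the IR64 arrays at 42 °C. In controls it ran from 8418 to 9658 and from 6675 to 10075. AMY1.1 alone read 5.47 to 5.49 on the Annapurna and 8767 to 10078 on the IR64 arrays at 42 °C. The sums at 42 °C thus differed largely through that gene. No marker was listed at 0, but 15 of the 22 stayed under 16 on all Annapurna arrays at 42 °C and 12 on all IR64 arrays, among them the glutelin genes GLUA-1, GLUB-4, GLUB-5 and GLUA-3. RNA came from whole seedlings, so fewer cells of a type and less RNA per cell cannot be told apart. The part of grain tissue in the differences described here was not tested, and the labels do not say whether the grain was left on the seedling.

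AMY1.1, an alpha-amylase of the germinating grain, read 5.47, 5.47 and 5.49 in Annapurna and 8767, 9204 and 10078 in IR64 at 42 °C (-8.77 ± 1.19, adjusted p = 6.2e-05). The IR64 arrays were bright and the Annapurna arrays read under their medians. Among IR64 controls, replicate 3 read 3532 against 37.9 and 41.6 on the others, and Annapurna controls read 5.49, 5.48 and 124. All arrays at 37 °C lay at 5.41 to 5.54 in Annapurna and 5.62 to 5.65 in IR64. The change of the difference from control to 42 °C was -6.29 ± 1.68 with all arrays, -8.29 without IR64 control replicate 3 and -7.39 without both controls numbered 3. In that last setting, with 1 added before the log, and without Annapurna control replicate 3, IR64 control replicate 1 or IR64 control replicate 2 alone, the control difference was called too, so AMY1.1 moved to the class already present between controls. Its class is therefore not settled.

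LOC4330830, a gene with no name in the annotation, had the same course over the arrays. It read 10.1, 15.7 and 12.1 in Annapurna and 1069, 1096 and 832 in IR64 at 42 °C (-5.14 ± 0.74, adjusted p = 1.0e-04), and IR64 control replicate 3 stood at 457 against 13.2 and 12.7. EP3A, a cysteine proteinase of the germinating grain, read 5.90, 6.28 and 5.90 in Annapurna and 52.3, 45.3 and 41.5 in IR64 (-1.50 ± 0.42, adjusted p = 0.019), with IR64 controls at 8.65, 6.98 and 102. This call was lost without Annapurna replicate 1 at 42 °C (adjusted p = 0.051), without IR64 replicate 1 at 42 °C (0.063), with 12 arrays (0.072) and with 64 added (0.053), all by limma. Without those single arrays the difference itself was -1.49 and -1.43. The SE draws on the spread within all groups, controls included. Without IR64 control replicate 3 the adjusted p at 42 °C was 9.6e-11 by limma. Whether EP3A differed at 42 °C only was undecided with all arrays (-0.65 ± 0.59). Without IR64 control replicate 3 it did (-1.42), and without IR64 control replicate 1 or 2 it was already different between controls. IR64 control replicate 3 was thus the high control array in all 3 genes.

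For the remaining genes of this group the class was the same without that array. OsTIP3;1, an aquaporin of the seed storage vacuole, read 56.1, 58.1 and 50.4 in Annapurna and 871, 925 and 891 in IR64 (-3.69 ± 0.07, adjusted p = 4.2e-14), with controls of 44.8 to 50.1 in Annapurna and 38.2 to 43.7 in IR64. LTP-2, a lipid transfer protein, rose from control in both cultivars, to 253, 298 and 238 in Annapurna and 2145, 2012 and 2028 in IR64 (-2.90 ± 0.09, adjusted p = 6.3e-12). At 37 °C the order of LTP-2 was the reverse, 234, 219.8 and 216 in Annapurna against 40.3, 43.0 and 55.3 in IR64 (1.95 ± 0.09). AMY1.3, an alpha-amylase gene known to respond to a lack of sugar, read 8.49, 6.53 and 8.91 in Annapurna against 86.2, 95.8 and 97.2 in IR64 at 42 °C (-2.19 ± 0.07, adjusted p = 1.2e-11) and was already lower in Annapurna at 37 °C, at 85.7 to 103 in Annapurna against 652 to 697 in IR64. MFT1, a gene of the family of the flowering signal FT, read 51.7, 64.8 and 63.97 in Annapurna and 299.8, 277 and 293 in IR64 (-2.01 ± 0.11, adjusted p = 4.7e-09).

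Both glyoxylate cycle genes that the annotation names were lower in Annapurna. ICL, isocitrate lyase, read 28.7, 18.7 and 19.9 in Annapurna and 412, 399 and 424 in IR64 at 42 °C (-3.48 ± 0.11, adjusted p = 1.4e-11). In controls it was 25.3, 33.9 and 34.6 in Annapurna against 141, 113 and 125 in IR64 (-1.59 ± 0.11), and the change of the difference to 42 °C was -1.90 ± 0.16. MS, malate synthase, differed by -0.18 ± 0.07 in controls and read 348, 368 and 359 in Annapurna against 1771, 1558 and 1611 in IR64 at 42 °C (-2.15 ± 0.07, adjusted p = 9.3e-12). ICL and MS rose in IR64 from control to 42 °C and did not pass the test in Annapurna, where the changes were -0.30 ± 0.11 and 0.35 ± 0.07. Beside these results stands the summed intensity of the grain markers, higher on every IR64 array than on every Annapurna array at 42 °C. That sum differed largely through AMY1.1, and the median difference over the marker list was -0.0050.

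**Figure D4:**
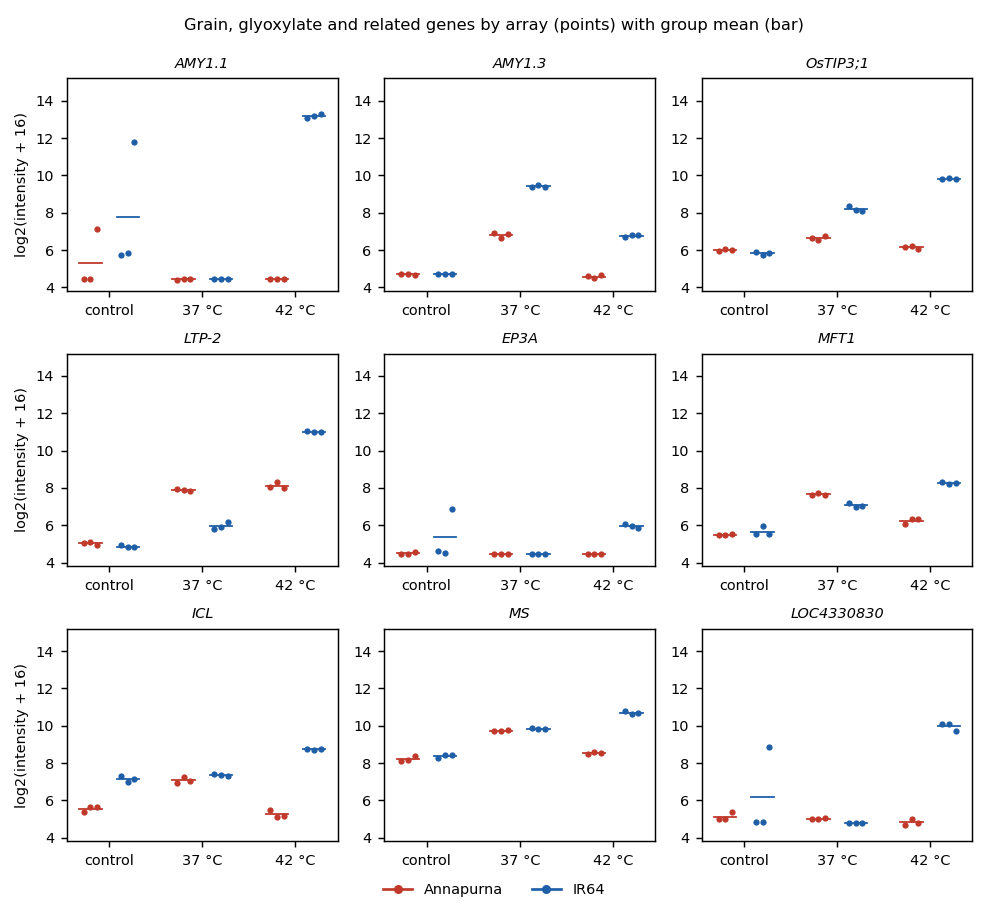
Log2(intensity + 16) of AMY1.1, AMY1.3, OsTIP3;1, LTP-2, EP3A, MFT1, ICL, MS and LOC4330830 on each array (points) with group means (bars), Annapurna in red and IR64 in blue. In all 9 genes the IR64 points lie above the Annapurna points at 42 °C, and in AMY1.1, EP3A and LOC4330830 1 IR64 control array stands far above the other 2.

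Of 6 root markers 1 was called at 42 °C, OsCASP1 of the Casparian strip of root endodermis, at 43.7, 40.6 and 31.0 in Annapurna and 288, 373 and 362 in IR64 (-2.71 ± 0.15, adjusted p = 4.7e-09). It was already lower in Annapurna controls by this probe set (-1.74 ± 0.15). Its other probe sets were called lower at 42 °C too (-1.71 and -1.88), while their control differences were -0.19 and -0.42. OsNIP2;1, the silicon channel Lsi1 of roots, was higher at 42 °C than in controls in both cultivars and was not called between them (-0.44 ± 0.17). The summed intensity of root markers was 6529 to 7276 in Annapurna and 8760.4 to 9715 in IR64 at 42 °C, without overlap, and its part in the results was not tested. Most of this sum was OsNIP2;1, at 5385 to 6161 in Annapurna and 7245 to 8112 in IR64. Of 7 genes of the photosynthetic light reactions 0 were called, and CAB2R, a light harvesting protein gene, stood at 0.06 ± 0.04.

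Several genes of iron uptake were higher in Annapurna at 42 °C. Of 49 measured genes for iron chelator synthesis and metal transport 6 were higher and 1 lower, and 4 of the 6 were so at 42 °C only. Grasses take up iron by secreting mugineic acids, which are built from nicotianamine. NAS1 and NAS2, both nicotianamine synthases, and NAAT1, the aminotransferase of the next step, were all among the 4.

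NAS1 read 10647, 10492 and 10869 in Annapurna and 2118, 2091 and 2183 in IR64 at 42 °C (2.32 ± 0.04, adjusted p = 9.0e-15). In controls IR64 was the higher cultivar, at 9489, 9321 and 8716 against 5687, 5949 and 5361 (-0.69 ± 0.04), and at 37 °C the difference was -0.04 ± 0.04. The fall was in IR64, where NAS1 changed by -2.10 ± 0.04 from control to 42 °C. NAS2 read 6647, 6585 and 7714 in Annapurna and 1464, 1547 and 1549.5 in IR64 (2.18 ± 0.12, adjusted p = 4.3e-09), and here the rise was in Annapurna (2.46 ± 0.12 from control). NAS2 controls differed by -0.90 ± 0.12, and without IR64 control replicate 3 that difference was called, so that NAS2 counts as turned. NAAT1 read 1389, 1453 and 1407 in Annapurna and 347, 305 and 313 in IR64 (2.09 ± 0.14, adjusted p = 6.1e-08). It fell in IR64 (-2.60 ± 0.14), and the cultivars already differed at 37 °C (1.61 ± 0.14). OsZIP2, of a family of zinc and iron transporters, rose in Annapurna to 180.3, 114 and 216 against 47.1, 32.4 and 38.6 in IR64 (1.72 ± 0.20, adjusted p = 1.7e-05).

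Both other higher genes of the group were already so between controls. Nramp1, a metal transporter of the plasma membrane, read 1129.9, 1063 and 1314 in Annapurna and 72.4, 66.2 and 72.3 in IR64 at 42 °C (3.77 ± 0.11, adjusted p = 2.6e-12). Its control difference of 2.26 ± 0.11 grew by 1.51 ± 0.15, and Nramp1 fell in IR64 from 232, 256 and 205 in controls. BHLH063, a transcription factor that the annotation lists under both IRO3 and OsIRO2, names of iron regulators of opposite role, read 574, 639 and 638 in Annapurna against 65.2, 77.1 and 77.4 in IR64 (2.83 ± 0.07, adjusted p = 8.1e-13) and differed in controls as well (3.06 ± 0.07). OsYSL14, of the yellow stripe-like transporters, was the lower member (-1.19 ± 0.08) and was undecided as to its class. The gene for the mugineic acid exporter tom1 was not called at 42 °C (-0.03 ± 0.05).

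Jasmonate genes held 36 measured members, 5 of them higher and 2 lower in Annapurna at 42 °C. The 3 genes higher at 42 °C only were all JAZ repressors. JAZ10 read 1126, 1064 and 989 in Annapurna and 227, 213 and 210.3 in IR64 (2.21 ± 0.11, adjusted p = 1.1e-09), from 3417 to 3890.0 and 3408 to 4850.2 in controls. JAZ12 read 882, 824 and 718 in Annapurna and 194, 250.1 and 184 in IR64 (1.88 ± 0.11, adjusted p = 6.9e-09), and JAZ11 528, 553 and 583 in Annapurna and 242, 205 and 208 in IR64 (1.29 ± 0.09, adjusted p = 5.1e-08). JAZ10 and JAZ11 fell from control in both cultivars and further in IR64, while JAZ12 fell in IR64 (-3.44 ± 0.11) and changed by -0.96 ± 0.11 in Annapurna, just under the threshold. JAZ13 went the other way, at -1.05 ± 0.16, and JAZ7, the uncalled jasmonate gene with the highest mean, stood at 0.41 ± 0.06. CM-LOX1 and CM-LOX2, lipoxygenase genes of the chloroplast, were higher in Annapurna both in controls (1.36 ± 0.16 and 1.08 ± 0.14) and at 42 °C (1.85 ± 0.16 and 1.75 ± 0.14). IR64 arrays read 7.09 to 11.3 and 10.1 to 10.3 there, near the amount added before the log, and with 64 added neither was called. CM-LOX2 was undecided as to its class without IR64 control replicate 3. JAZ11, JAZ13 and AOS4 (-1.11 ± 0.12), an allene oxide synthase gene, were named after their values were seen.

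**Figure D5:**
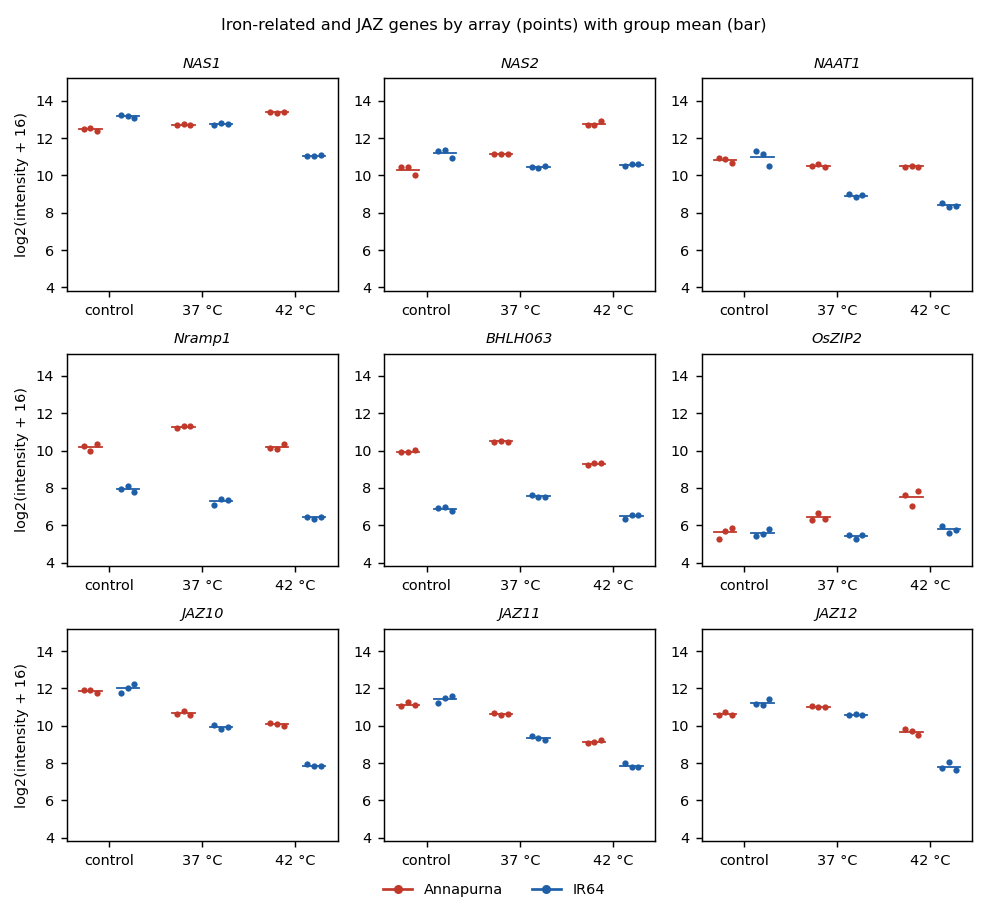
Log2(intensity + 16) of NAS1, NAS2, NAAT1, Nramp1, BHLH063, OsZIP2, JAZ10, JAZ11 and JAZ12 on each array (points) with group means (bars), Annapurna in red and IR64 in blue. All Annapurna points lie above the IR64 points at 42 °C, and in NAS1, NAS2, NAAT1, JAZ10, JAZ11 and JAZ12 the control means have the opposite order.

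Most called defence genes were higher in Annapurna. The list of diterpenoid phytoalexins, the antifungal compounds of rice, and of defence signalling held 26 genes, with 6 higher and 1 lower at 42 °C. For 5 of the 6 this was so at 42 °C only. CYP71Z7, a cytochrome P450 of phytoalexin synthesis, read 322, 318 and 316 in Annapurna and 51.8, 55.3 and 69.4 in IR64 (2.17 ± 0.28, adjusted p = 4.2e-05). It rose in Annapurna from 53.5, 55.3 and 67.6, and IR64 controls were spread at 187, 176 and 57.2, so that without IR64 replicate 3 the control difference was called and CYP71Z7 counts as turned. NH3, a homologue of the salicylic acid receptor NPR1, read 453, 516 and 493 in Annapurna against 117, 120.4 and 105 in IR64 (1.95 ± 0.10, adjusted p = 1.9e-09), and its 3 other probe sets were called in the same direction. CYP701A8 (1.38 ± 0.24), a cytochrome P450 of the same synthesis, CPS2 (1.35 ± 0.23), a diterpene cyclase of it, and PBZ1 (1.26 ± 0.16), a pathogenesis-related protein gene, were higher as well. CYP99A3, of the momilactone cluster, was higher in Annapurna in controls (1.63 ± 0.25) and at 42 °C (1.82 ± 0.25). CPS1, the cyclase of gibberellin synthesis, was the lower one (-1.04 ± 0.09). CPS2, PBZ1 and CPS1 were named after their values were seen, and in CYP71Z7, CPS2 and CYP701A8 alike replicate 3 was the low array among IR64 controls.

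Of 6 genes that the annotation names as WRKY factors, regulators of defence genes, 4 were higher in Annapurna and 0 lower. OsWRKY76 read 319, 287 and 275 in Annapurna and 40.1, 44.1 and 45.8 in IR64 (2.38 ± 0.15, adjusted p = 2.3e-08), and OsWRKY62 104, 112 and 117 in Annapurna and 12.1, 12.3 and 11.96 in IR64 (2.17 ± 0.08, adjusted p = 4.8e-11). Both were higher in Annapurna controls too (1.62 ± 0.15 and 1.36 ± 0.08). OsWRKY24 (2.22 ± 0.10) and OsWRKY71 (1.42 ± 0.10) were higher at 42 °C only. OsWRKY71 fell in both cultivars, in Annapurna from 2027, 1842 and 1697 to 377, 342 and 425. In IR64 it went from 1853, 1942 and 2432 to 124, 141 and 130.1. A second probe set of OsWRKY71 stood at 0.39 ± 0.26. WRKY9 was not called (-0.13 ± 0.05).

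Nutrient and water transport genes went both ways. Of 33 genes for nitrate, ammonium and phosphate uptake 3 were higher and 1 lower, all 4 in the class at 42 °C only with all arrays. NIA1, nitrate reductase, read 10148, 10445 and 10006 in Annapurna and 3333, 3249 and 2953 in IR64 (1.68 ± 0.04, adjusted p = 2.7e-13), having fallen in both cultivars from 24536 to 25622 in Annapurna and 15775 to 16399 in IR64. Phosphate transporters differed in sign, with OsPht1;1 at 426, 452 and 488 in Annapurna against 156, 162 and 134 in IR64 (1.504 ± 0.07, adjusted p = 9.2e-10) and OsPht1;2 at 42.4, 43.3 and 42.2 in Annapurna against 215, 254 and 301 in IR64 (-2.21 ± 0.12, adjusted p = 5.5e-09). By its other probe set OsPht1;1 differed by 1.32 in controls and by 0.82, not called, at 42 °C, so its class rests on the probe set. OsPht1;2 differed by -0.90 ± 0.12 in controls, under the threshold, and was called lower at 37 °C (-1.58 ± 0.12). It moved to the class already present between controls under quantile normalization, with 1 added before the log, and without Annapurna control replicate 1. NIA1, with a change of 1.04 ± 0.06, was undecided as to its class without IR64 replicate 3 at 42 °C. OsSPX2, a sensor of phosphate status, was higher in Annapurna (1.68 ± 0.21). Of 24 potassium and sodium transporters 2 were higher and 2 lower. HAK17, a potassium transporter, read 419, 483 and 475 in Annapurna and 72.7, 73.8 and 79.0 in IR64 (2.38 ± 0.14, adjusted p = 8.0e-09), and HAK16 was higher to the same degree in controls (1.57 ± 0.16) and at 42 °C (1.58 ± 0.16).

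Of 25 aquaporins 1 was higher and 3 lower in Annapurna. OsTIP2;1, of the vacuolar membrane, read 4485, 4835 and 4791 in Annapurna and 17129, 18398 and 16023 in IR64 (-1.86 ± 0.06, adjusted p = 9.3e-12). By its other probe set OsTIP2;1 was lower in controls (-1.46) and at 42 °C (-1.73), while this one gave -0.75 ± 0.06 in controls. OsPIP2;7, of the plasma membrane, fell in IR64 and read 5186, 5063 and 4162 in Annapurna against 1906, 2209.6 and 2060.0 in IR64 (1.21 ± 0.10, adjusted p = 2.8e-07). OsPIP2;4 was lower (-1.25 ± 0.09), and the third lower aquaporin is OsTIP3;1 of the seed. OsPIP2;1 did not pass the test (-0.06 ± 0.06).

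Of 9 genes for raffinose and trehalose synthesis 2 were higher in Annapurna and 0 lower. OsTPP7, a trehalose-6-phosphate phosphatase known for growth of seedlings under water and known to be missing from the IR64 genome, read 834, 943 and 753 in Annapurna and 4.70, 4.64 and 4.65 in IR64 (5.37 ± 0.09, adjusted p = 5.0e-15). It fell in Annapurna from 2202, 2505 and 2086, so the difference of 6.76 ± 0.09 in controls changed by -1.39 ± 0.13. IR64 lay at 4.92 to 5.05 in controls and 4.79 to 4.86 at 37 °C. OsTPP1, another such phosphatase, read 1008, 1115 and 979 in Annapurna against 514, 463 and 417 in IR64 at 42 °C (1.13 ± 0.10, adjusted p = 7.8e-07) while controls had the opposite order at 1259.7 to 1373 in Annapurna and 2436 to 3129.6 in IR64 (-0.99 ± 0.10).

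Some of the largest differences already present between controls kept their size at 42 °C and others changed. Where Annapurna was higher, RH2, an RNA helicase gene, read 1434, 1420.1 and 1349 in Annapurna against 69.0, 69.3 and 67.8 in IR64 (4.06 ± 0.07 at 42 °C, 3.70 ± 0.07 in controls). EIL1B, of the ethylene signal factors, read 398, 395 and 263 in Annapurna against 14.4, 9.99 and 9.57 in IR64 (3.73 ± 0.23 and 4.34 ± 0.23). OsPMEI28, a pectin methylesterase inhibitor, stood at 3.46 ± 0.10 and 2.85 ± 0.10, the SPO11 homologue OsSPO11-4 at 2.47 ± 0.12 and 2.55 ± 0.12, and BGLU9, a beta-glucosidase, at 2.47 ± 0.11 and 2.05 ± 0.11. LOGL9, of a family of cytokinin activating enzymes, gave 2.45 ± 0.07 and 2.30 ± 0.07. In none of these 6 genes was the change from control to 42 °C called. GLP2, a germin-like protein, gave 2.78 ± 0.22 at 42 °C by its representative probe set and -1.05 ± 0.29 by a second one, so its direction rests on the probe set.

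Where Annapurna was lower, OsCASPL1E1, a CASP-like membrane protein gene, read 6.67, 6.34 and 7.28 in Annapurna against 524, 633 and 469.9 in IR64 at 42 °C (-4.61 ± 0.08, adjusted p = 8.1e-15). It fell in IR64 from 1472, 1452 and 1526, and the difference shrank from -6.04 ± 0.08. GLU15, an endoglucanase of the cell wall, read 6.03, 7.25 and 7.36 in Annapurna against 559, 565 and 543 in IR64. GLU6, of the same family, read 6.78, 13.7 and 7.89 against 226, 195 and 224. Both rose in IR64, and their differences grew from -2.53 ± 0.10 to -4.64 ± 0.10 and from -1.21 ± 0.14 to -3.19 ± 0.14. Cht9, a chitinase, read 225, 220.5 and 239 in Annapurna and 4421, 5066 and 3482 in IR64 (-4.14 ± 0.24, adjusted p = 8.4e-09), with -3.85 ± 0.24 in controls. CML16, a gene of the calmodulin-like calcium sensors, fell in both cultivars and the difference shrank from -4.36 ± 0.13 to -2.96 ± 0.13. ILL3, of the auxin conjugate hydrolases, stood at -2.91 ± 0.16 and -2.54 ± 0.16.

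Growth of the cell wall uses expansins and xyloglucan hydrolases. Of 26 expansins and xyloglucan hydrolases 5 were lower in Annapurna at 42 °C and 0 higher, 3 of them already in controls and 2 undecided. OsXRT5, a xyloglucan hydrolase, read 795, 856 and 530.4 in Annapurna against 4867, 5568 and 4877 in IR64 (-2.81 ± 0.16, adjusted p = 6.1e-09), with -2.55 ± 0.16 in controls. EXP1, an expansin, read 131, 137 and 133 in Annapurna against 534, 492 and 581 in IR64 (-1.88 ± 0.07, adjusted p = 4.8e-11), with -2.51 ± 0.07 in controls. Of 46 genes for cellulose and lignin 1 was called, CSFL8 (-1.38 ± 0.11). The laccase genes LAC3 (-2.35 ± 0.11) and LAC19 (2.30 ± 0.17) were both in the class at 42 °C only, set against controls, and differed in opposite directions. LAC3 was called lower in Annapurna at 37 °C as well (-1.46 ± 0.11). ELA3, an early nodulin-like gene, turned from 2.43 ± 0.15 in controls to -1.85 ± 0.15 at 42 °C, where Annapurna read 104, 102 and 102 and IR64 384, 471 and 381. BGLU19, a beta-glucosidase gene, read 1287, 1380.2 and 1138 in Annapurna controls and 70.1, 64.6 and 35.5 at 42 °C, against 12.9, 8.27 and 10.4 in IR64 at 42 °C, so that its difference shrank from 5.46 ± 0.15 to 1.42 ± 0.15.

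Glutaredoxins and thioredoxins reduce disulphide bonds. Of 36 thioredoxins and glutaredoxins 1 was higher and 3 lower. GRXS9, a glutaredoxin, fell in IR64 and read 2884, 2704 and 2613 in Annapurna against 844, 915 and 804 (1.66 ± 0.07, adjusted p = 4.8e-10). GRXC1 fell in Annapurna and read 645, 832 and 736 in Annapurna against 2009.8, 2001 and 2011 in IR64 (-1.43 ± 0.09, adjusted p = 1.4e-08). GST1, a glutathione transferase, rose in both cultivars and read 677, 681 and 812 in Annapurna against 1556, 1513 and 1528 in IR64 (-1.07 ± 0.11, adjusted p = 5.1e-06). Of 16 genes for ascorbate and glutathione 0 were called, and APX2, an ascorbate peroxidase, stood at -0.03 ± 0.03, although 1 of its dimmer probe sets was called lower (-1.28 ± 0.08).

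The list named for the Calvin cycle held 5 genes, of which 2 were higher in Annapurna, both for fructose bisphosphatase and both undecided. CFBP1, the form of the cytosol, which serves sucrose synthesis and not the Calvin cycle, read 1388, 1472 and 1475 in Annapurna and 655, 558 and 550.2 in IR64 (1.28 ± 0.07, adjusted p = 5.6e-09), after a fall in both cultivars. The other, FBPase, stood at 1.17 ± 0.04. Of 9 genes for chlorophyll synthesis 1 was called, HEMD (1.23 ± 0.06). Of 7 clock genes OsPRR95 was higher (1.02 ± 0.09). CCA1, the morning clock gene, was called higher in Annapurna controls, at 14057, 12606 and 11889 in Annapurna against 6331, 6406 and 6442 in IR64 (1.002 ± 0.06), fell in both cultivars, and read 499, 479.7 and 535 in Annapurna against 574, 568 and 628 in IR64 at 42 °C (-0.22 ± 0.06), with a called change of -1.22 ± 0.08.

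CCA1 is one of 1062 probe sets called between controls and not at 42 °C. For 513 of them the change of the difference was called, and for the rest it was not shown that the difference had changed. No call at 42 °C was made in 59 auxin response genes, 51 CBL-interacting and calcium-dependent kinases, 18 sugar transporters, 8 NAC factors and 23 actin and tubulin genes. In these lists the uncalled members with the highest mean were IAA17 (0.20 ± 0.04), CIPK14 (0.01 ± 0.05), OsSWEET1a (-0.38 ± 0.05), NAC048 (0.39 ± 0.05) and TID1 (0.03 ± 0.05). The longest list, that of cell division genes, had 2 higher and 1 lower, and 1 of 39 homeobox genes was lower.

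Of the 1929 probe sets called at 42 °C, 737 (38.2%) have no single annotated gene, against 34822 (60.8%) of all probe sets tested. The largest difference in the higher direction at 42 °C only was one of these, the probe set Os.17916.1.S1_at. It read 47718, 47587 and 48755 in Annapurna and 212, 185 and 247 in IR64 (7.71 ± 0.15). Controls read 45287, 46304 and 44448 in Annapurna and 32049.6, 33929 and 19454 in IR64, and at 37 °C 38759.6, 39692 and 40594 and 12097, 12065 and 11424. It was bright in every Annapurna group and stepped down with heat in IR64. Its IR64 control replicate 3, the array that stood apart in AMY1.1, was the lowest of the IR64 controls. Among genes known by locus number only, LOC4344438 read 15.22, 30.2 and 17.3 in Annapurna against 1059, 975 and 989.9 in IR64 (-4.81 ± 0.12, adjusted p = 6.6e-13) and LOC9267926 12.3, 12.2 and 16.1 in Annapurna against 377, 561 and 461 in IR64 (-4.01 ± 0.10, adjusted p = 8.5e-13). In the other direction LOC4352495 read 1689, 1361 and 1541 in Annapurna against 176, 183 and 159 in IR64 (3.03 ± 0.09, adjusted p = 5.7e-12), LOC4336109 stood at 2.71 ± 0.08 and LOC4325662 at 2.68 ± 0.13. LOC4325662 moved to the class already present between controls without IR64 control replicate 3.

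Other probe sets of the same gene offer a partial check. For 88 genes already different between controls, 93 of 112 other probe sets had the same sign at 42 °C, 49 were called in the same direction and 6 in the opposite one. For 55 genes different at 42 °C only, 58 of 71 had the same sign, 23 were called in the same direction and 0 in the opposite one. Brightness limits the sizes: the dimmer cultivar averaged under 50 in 972 of the 1929 called probe sets (50.4%), and both did in 128 (6.64%), so that many differences depend on the amount added before the log. All 107 called genes that the naming rule picked had no overlap between the 3 Annapurna and the 3 IR64 arrays at 42 °C. The calls were made on these same arrays, so this describes them and is not a further check. Uncalled genes such as CLPB1 and Dhn1 had no overlap either.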

How the data were processed

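RNA of 18 whole-seedling samples was hybridized, 1 array each, after biotin labelling by in vitro transcription, per the labels' protocols. Values were deposited as linear intensity of each probe set, made with GCOS per the submitters' processing notes, and their summarization and scaling are not given in the sources used here. Array medians differed by at most 0.037 log2, and no further normalization was applied. These medians lie in dim signal, at intensities of 7.59 to 8.19 on the control and 42 °C arrays. The upper quartile of intensity was 198 to 204 in Annapurna and 180 to 186 in IR64 controls. At 42 °C it was 195 to 198 in Annapurna and 202 to 206 in IR64. Under quantile normalization the differences at 42 °C only numbered 202 higher and 276 lower. Without the array's 123 AFFX control probe sets, 57258 were tested as log2(intensity + 16). The fit was limma 3.58.1 in R 4.3.3, with 6 group means over 18 arrays, 12 residual degrees of freedom and empirical Bayes with a variance trend. Tests were two-sided with Benjamini-Hochberg adjustment within a contrast. On simulated data, with known changes above the threshold in brighter probe sets only, most classes were recovered, with the right sign. Smaller changes and changes in dim probe sets were not simulated. Python 3.11.15, pandas 2.3.3, numpy 2.4.6 and matplotlib 3.10.9 made tables and figures.

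Of the probe sets, 22436 matched 1 gene, 95 several and 34727 none, and all 17905 genes were in the reference table (assembly ASM3414082v1), which was used for names only. A gene is its probe set with the highest mean, and 2450 genes carry a name. Members and lists were chosen with earlier results of these data known. Named genes are the 12 largest differences each way at 42 °C only, the 10 largest each way already between controls, those that turned, up to 4 called members of each list with the uncalled member of highest mean, 9 genes fixed by name, and the 3 largest loci without a name each way. Where others appear the text says so, and further uncalled list members were named for their list alone. Samples were not treated as paired by replicate number. Deviations of same-numbered arrays correlated at -0.19 to 0.16, and 5 of 18 pairs exceeded 0.1. Taken over all probe sets, this cannot show whether same-numbered samples were handled together, and the labels do not say. Alternatives were other amounts added, quantile normalization, a filter on dim probe sets, no variance trend, no fold threshold, 12 arrays, a replicate block and leaving out arrays. Promoter sequences were not analysed here.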

Additional observations from a re-analysis of the deposited data

Results flagged for a closer look

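In 65 of the 152 named genes the difference between cultivars at 42 °C was not the same as that between controls, by the term of the limma fit for the change of the difference, with an adjusted p under 0.05 and at least 2-fold. Over all probe sets 1730 (3.02%) passed this test, 615 higher and 1115 lower. Many of the named genes were picked for the class at 42 °C only, which itself requires this call. The number that passed is therefore set in part by the naming rule and cannot be compared with the share over all probe sets. The values here are that change on the log2 scale, 38 below and 27 above 0, where a negative value means that Annapurna stood lower against IR64 at 42 °C than in controls.

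Of abscisic acid, phosphatase and seed genes, the change was below 0 in RAB16B (-3.46), rab25 (-3.36), RAB16C (-3.23), RAB21 (-2.92) and OsPM19L1 (-2.77), and likewise in OsPP2C59 (-2.43), CYP707A6 (-1.57), LTP-2 (-3.08), OsTIP3;1 (-3.84), AMY1.1 (-6.29) and AMY1.3 (-2.15). The seed and lipid genes MFT1 (-1.83), ICL (-1.90) and MS (-1.97) went the same way. Of heat genes it was below 0 in HSP18.1 (-5.71), HSP26.7 (-2.73), HSP16.9B (-2.49), HSP16.6 (-1.84), HSFB2A (-1.66), HSFA6B (-1.49), HSFA2A (-1.003), CLPB1 (-1.05) and OsPDIL1-3 (-1.29). Cell wall and glucosidase genes below 0 were ELA3 (-4.27), BGLU19 (-4.03), GLU15 (-2.11), GLU6 (-1.98), LAC3 (-2.06) and BGLU18 (-1.84). The transport, redox and other named genes below 0 were GRXC1 (-1.41), GST1 (-1.09), OsTPP7 (-1.39), OsPht1;2 (-1.31), OsTIP2;1 (-1.11) and CCA1 (-1.22). Loci without a name added LOC4344438 (-4.82), LOC4330830 (-4.08) and LOC9267926 (-3.95).

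The change was above 0 in the iron genes NAS2 (3.08), NAS1 (3.01), NAAT1 (2.28), OsZIP2 (1.68) and Nramp1 (1.51) and in the jasmonate and defence genes CYP71Z7 (3.10), JAZ12 (2.48), JAZ10 (2.35), CYP701A8 (1.65), OsWRKY71 (1.58), OsWRKY24 (1.43) and NH3 (1.16). Transport genes above 0 were HAK17 (1.70), OsSPX2 (1.64), OsPIP2;7 (1.46), OsPht1;1 (1.38) and NIA1 (1.04). Other genes above 0 were OsTPP1 (2.13), GRXS9 (1.73), LAC19 (1.63), OsCASPL1U2 (1.499), OsCASPL1E1 (1.43), CML16 (1.40) and OsPP2C12 (1.11). Loci without a name above 0 were LOC4336109 (3.45), LOC4352495 (2.75) and LOC4325662 (1.74). Values for OsTPP7, OsCASPL1E1, CML16 and BGLU19 are control differences that shrank.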

How the results depend on the processing

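The main counts were 823 higher and 1106 lower at 42 °C, 472 and 487 already between controls, and 169 and 358 at 42 °C only. With 64 added before the log these were 495, 689, 285, 308, 81 and 196, and with no fold threshold 5159, 6660, 3013, 2674, 1165 and 2028. Each other setting kept all 6 counts within 1.5 times the main ones. Leaving out 1 array at a time gave 821 to 846, 1085 to 1148, 465 to 477, 474 to 496, 164 to 185 and 346 to 386. With the replicate number as a block the counts were 821, 1104, 472, 486, 169 and 358, and 0 of the 107 named calls were lost.

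No named call changed sign in any setting. Of the 107, 19 were lost with 64 added, 2 (HSFB2A and HOX8) under quantile normalization, 1 (EP3A) with 12 arrays, and 0 to 4 without single arrays. Those lost without single arrays were HSFB2A, HOX8, OsPRR95, OsSAPK9 and KIN10B, with differences at the threshold, and EP3A, through its adjusted p. Without IR64 control replicate 3 the class of 11 named genes changed, EP3A among them, and without both controls numbered 3 that of 13. Medians of all probe sets stayed within 0.1 log2 of 0 in each setting. Dim signal limits the sizes for the probe sets under 50 in one cultivar.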

Other observations

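Several of the largest differences fell on probe sets with no single annotated gene, chosen here after their values were seen. Of the 527 differences at 42 °C only, 46 of the higher and 135 of the lower ones were of this kind, and of the 959 already between controls 190 and 208. Os.28427.1.S1_x_at read 1281, 1319.9 and 1441 in Annapurna and 8.83, 8.74 and 9.43 in IR64 at 42 °C (5.77 ± 0.51), with controls of 65.9, 223 and 251 and 420.3, 337 and 65.6 that overlapped and were spread within each cultivar. In the lower direction OsAffx.30868.1.S1_at read 6.94, 6.91 and 6.74 against 380.0, 342 and 305 (-3.96 ± 0.14), and Os.12452.1.S1_s_at 36.8, 59.8 and 38.3 against 947, 991 and 1029 (-4.06 ± 0.16). The latter was brightest at 37 °C, at 747, 665 and 679 and 5750.5, 5549 and 5684.

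Among differences already between controls, Os.10246.5.S1_at read 9.65, 11.3 and 9.69 in Annapurna and 14573, 15309.7 and 12649.9 in IR64 at 42 °C (-9.08 ± 0.06), the lowest value of all, and -9.28 ± 0.06 in controls. Os.48206.1.S1_at read 5990.4, 6399 and 6066 against 8.25, 7.98 and 8.34 (7.99 ± 0.10) and 6.96 ± 0.10 in controls. In both, the dimmer cultivar read under 16, the amount added before the log, on every array.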
